A study of Mus musculus with 7 samples.

Results

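The genes described here are 10 receptors and ligands of T cell costimulation and checkpoints, measured in pancreatic islets. They are Cd28, Icos, Ctla4, Pdcd1, Lag3 and Havcr2, which encode receptors, and Cd80, Cd86, Cd274 and Pdcd1lg2, which encode ligands. They are a set named by their roles and were chosen with earlier results of these data known. Each has 1 probe set, and all 10 are among the 25793 gene symbols on the array. Islet RNA of NOD.ALRc8(D8Mit293-D8Mit137) mice, labelled NOD_Idd22, was set against that of NOD-Rag1-/- mice. The congenic mice carry a segment of Chr 8 from the ALR strain on the NOD background and have intact Rag1. The NOD-Rag1-/- mice are NOD mice with the Rag1tm1Mom knockout, so they lack mature T and B cells, and their islets stay free of insulitis, the infiltration of islets by immune cells. According to the methods this is why they, and not NOD mice with insulitis of varying extent, served as the comparison. The strains therefore differ at least in the Chr 8 segment, in Rag1 with any donor DNA linked to it, and in mature lymphocytes. These cannot be told apart here. There were 4 pools of NOD.ALRc8 islets and 3 pools of NOD-Rag1-/- islets. Each pool held islets of 2 mice aged 10 to 12 weeks, 200 to 250 islets by the methods, which the labels say were picked by hand.

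Values are log2 expression values that the authors made with RMA from Affymetrix Mouse Gene arrays. Differences are NOD.ALRc8 minus NOD-Rag1-/- on this log2 scale, tested with limma over 34351 annotated probe sets with Benjamini-Hochberg adjustment. The study called a gene changed when its log2 fold change passed 0.5 in size and its unadjusted p was below 0.05. An exact two-sided permutation test over the 35 arrangements of the strain labels was also run for each gene, and 0.0286 is the smallest p it allows. Lower quartiles of the arrays formed 2 sets, with 2.64 to 2.68 in NOD.ALRc8 replicates 2, 3 and 4 and NOD-Rag1-/- replicate 1, and 2.49 to 2.5 in NOD.ALRc8 replicate 1 and NOD-Rag1-/- replicates 2 and 3. Differences within each set are given as values with no test. NOD-Rag1-/- replicate 1 also had the values of a male pool (Xist, made from the inactive X, at 2.56 against 9.69 to 10.28 elsewhere), although the labels give no sex. In the set with this pool, strain and sex cannot be told apart. The Rag1 probe set read 3.25 to 3.87 in NOD.ALRc8 pools and 3.63 to 4.20 in NOD-Rag1-/- pools. Where its probes lie relative to the deleted part is not known here, so it does not check the labels. The T cell receptor chain gene Cd3g does separate them, at 6.02 to 7.73 in NOD.ALRc8 pools and 2.61 to 2.99 in NOD-Rag1-/- pools.

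T cells respond to antigen when the signal of their antigen receptor is joined by a costimulatory signal. CD28 gives that signal when it binds CD80 or CD86 on an antigen-presenting cell, and ICOS, induced on activated T cells, gives a related one. CTLA-4 competes with CD28 for the same ligands, and PD-1, the product of Pdcd1, dampens activated T cells when it meets PD-L1 (from Cd274) or PD-L2 (from Pdcd1lg2). LAG-3 binds MHC class II and TIM-3, the product of Havcr2, is carried by T cells as well as by myeloid cells. In NOD mice, which develop autoimmune diabetes spontaneously, blocking PD-1 or CTLA-4 speeds the disease, and PD-L1 can be made by islet cells under interferon.

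None of the 10 genes lies on Chr 8, the chromosome of the congenic segment. In RefSeq for GRCm38.p6, Cd28 (Chr 1 from 60746388 to 60773359), Ctla4 (Chr 1 from 60909025 to 60915832) and Icos (Chr 1 from 60960773 to 61000322) lie side by side in a region of Chr 1 linked to diabetes in NOD mice. Pdcd1 lies farther along the same chromosome (94038305 to 94052553), Lag3 on Chr 6 (124904359 to 124912434) and Havcr2 on Chr 11 (46454931 to 46481255). Among the ligand genes, Cd80 (38457430 to 38495958) and Cd86 (36568956 to 36666158) are both on Chr 16. Cd274 (29362107 to 29388095) and Pdcd1lg2 (29410919 to 29472927) neighbour each other on Chr 19. The position that the deposited table gives for each probe set overlapped its RefSeq gene for all 10.

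Promoters were looked at because several genes induced by interferon gamma were also higher, with values given further on. RefSeq promoter entries of 300 bases, 250 before to 50 after the start in GRCm38.p6, were matched for 6 of the 10 genes (Ctla4, Pdcd1, Havcr2, Cd80, Cd274 and Pdcd1lg2). The core of the interferon-stimulated response element, searched as GAAANNGAA on both strands, was found in 2 of these 6, against 8.56% of 32851 promoters. The gamma-activated site, searched as TTCNNNGAA, which reads the same on both strands, was found in 0 of 6, against 8.3% of all promoters. Both matches of the first motif are shown in capitals, and each lies on the reverse strand, so the printed letters are its complement. The Ctla4 promoter is chr1:60908775-60909074 on the plus strand with the match 166 bases before the start, and the Cd274 promoter is chr19:29367188-29367487 on the plus strand with the match 76 bases before its start. The Cd274 entry lies inside the RefSeq gene as given above (from 29362107), so its start is not the first base of that gene. A match is a run of letters and not a measured site.
Ctla4: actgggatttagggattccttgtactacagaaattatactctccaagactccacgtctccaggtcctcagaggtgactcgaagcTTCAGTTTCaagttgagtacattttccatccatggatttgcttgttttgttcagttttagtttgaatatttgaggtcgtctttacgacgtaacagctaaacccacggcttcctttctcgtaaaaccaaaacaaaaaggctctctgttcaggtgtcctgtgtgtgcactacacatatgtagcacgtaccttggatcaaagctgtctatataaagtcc
Cd274: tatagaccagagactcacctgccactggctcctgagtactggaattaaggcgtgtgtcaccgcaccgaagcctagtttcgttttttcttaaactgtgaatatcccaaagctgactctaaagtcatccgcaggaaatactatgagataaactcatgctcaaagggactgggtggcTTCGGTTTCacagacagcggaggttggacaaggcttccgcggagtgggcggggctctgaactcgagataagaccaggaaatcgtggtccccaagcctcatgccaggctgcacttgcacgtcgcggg

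All 10 genes had a higher mean in NOD.ALRc8 islets than in NOD-Rag1-/- islets, by 0.40 to 1.76 on the log2 scale, with a median of 1.03 against 0.01 over all genes. No gene of the 10 passed an adjusted p of 0.05 by limma, a level that 0.157% of all probe sets passed. By the study's threshold, 8 of 10 were higher and 0 lower, against 5.59% of all probe sets in either direction (3.81% higher and 1.78% lower). The same 8 had an unadjusted p under 0.05. In 7 of 10 genes every NOD.ALRc8 pool was above every NOD-Rag1-/- pool, which held for 4.43% of all probe sets, while the reverse order held for none of the 10 and for 2.74% of all probe sets. The 10 genes were chosen with earlier results of these data known, so these shares stand beside the counts and are not a test. Centring each array on its median moves every difference by -0.12 and changes the share of probe sets that are higher (1310 of 1920 at the study's threshold as deposited, 1030 of 2315 after centring). Under this scaling 7 of the 10 genes met the study's threshold, and Cd274 did not. In bulk islet RNA, fewer cells of a type and less RNA per cell cannot be told apart.

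**Figure D1:**
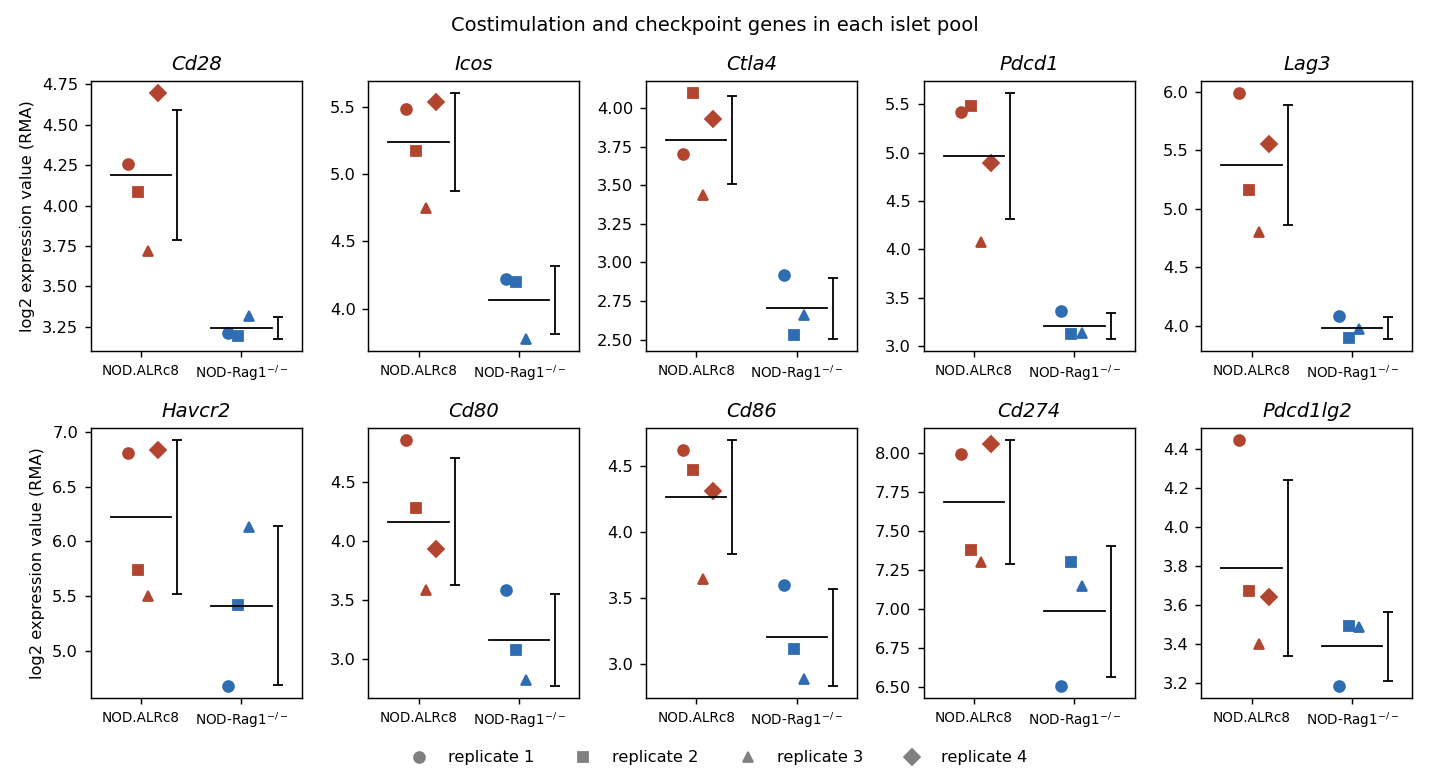
Log2 expression value (RMA) of each of the 10 genes in each islet pool, with NOD.ALRc8 pools (n = 4) left of NOD-Rag1-/- pools (n = 3). Horizontal lines are means, bars beside them are ± 1 SD, marker shapes are replicates, and each panel has its own axis, which does not start at 0. The groups are apart by 0.40 or more in Cd28, Icos, Ctla4, Pdcd1 and Lag3, and overlap in Havcr2 and Pdcd1lg2.

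Both costimulatory receptor genes were higher in NOD.ALRc8 islets. Cd28 read 4.26, 4.08, 3.72 and 4.69 in NOD.ALRc8 replicates 1 to 4, against 3.22, 3.20 and 3.32 in NOD-Rag1-/- replicates 1 to 3. The NOD-Rag1-/- pools were nearly alike and all below the lowest congenic pool, so the spread lay within NOD.ALRc8 (4.19 ± 0.40, SD, n = 4, against 3.24 ± 0.07, SD, n = 3). The log2 fold change of Cd28 was 0.95 (standard error 0.21, 1.93-fold), with an adjusted p of 0.219 by limma and an exact permutation p of 0.0571. Icos read 5.49, 5.17, 4.75 and 5.54 in NOD.ALRc8 pools and 4.22, 4.20 and 3.78 in NOD-Rag1-/- pools. The lowest congenic pool was 0.52 above the highest NOD-Rag1-/- pool. The log2 fold change of Icos was 1.17 (standard error 0.22, 2.25-fold), with an adjusted p of 0.143 by limma and an exact permutation p of 0.0286, the smallest possible. In the array set with 3 congenic pools Cd28 differed by 0.95 and Icos by 0.93, and in the other set by 1.0 and 1.5.

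Of the inhibitory receptor genes, Ctla4, Pdcd1 and Lag3 separated the strains and Havcr2 did not. Pdcd1 had the largest difference of the 10 genes, reading 5.42, 5.48, 4.08 and 4.89 in NOD.ALRc8 pools, against 3.37, 3.13 and 3.14 in NOD-Rag1-/- pools. Replicate 3 of NOD.ALRc8 was well below the other congenic pools, yet 0.71 above the highest NOD-Rag1-/- pool. NOD.ALRc8 pools averaged 4.97 ± 0.65 (SD, n = 4) and NOD-Rag1-/- pools 3.21 ± 0.13 (SD, n = 3). The log2 fold change of Pdcd1 was 1.76 (standard error 0.33, 3.38-fold, adjusted p = 0.147 by limma). The exact permutation p was 0.0571, as 1 other arrangement of the labels gave a difference of means at least as large in size.

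Lag3 read 5.99, 5.16, 4.80 and 5.55 in NOD.ALRc8 pools and 4.09, 3.90 and 3.97 in NOD-Rag1-/- pools. The gap between the groups was again 0.71. Lag3 differed by 1.39 (standard error 0.26, 2.62-fold), with an adjusted p of 0.149 by limma and an exact permutation p of 0.0286. Ctla4 read 3.71, 4.10, 3.44 and 3.93 in NOD.ALRc8 pools, against 2.92, 2.53 and 2.66 in NOD-Rag1-/- pools. The NOD-Rag1-/- values of Ctla4 lay near the lower quartile of all probe sets on these arrays, so this was a dim probe set in that strain. Cd28, Pdcd1, Cd80, Cd86 and Pdcd1lg2 also read below the array medians of 3.82 to 3.99 in NOD-Rag1-/- pools. In NOD.ALRc8 pools the array medians were 3.90 to 4.07, and Ctla4 read below the median of its array in replicates 1, 3 and 4. Pdcd1lg2 did so in replicates 2, 3 and 4, Cd80 in replicates 3 and 4, and Cd28 and Cd86 in replicate 3. The log2 fold change of Ctla4 was 1.09 (standard error 0.18, 2.13-fold), with the lowest adjusted p of the 10 genes (0.103 by limma) and an exact permutation p of 0.0286. In the array set with 3 congenic pools the differences were 1.45 for Pdcd1, 1.09 for Lag3 and 0.90 for Ctla4, and in the other set 2.29, 2.05 and 1.11. Without NOD.ALRc8 replicate 3, the adjusted p by limma was 0.0120 for Pdcd1, 0.0347 for Ctla4, 0.0354 for Icos and 0.0452 for Lag3. This pool was the lowest of its strain for all 10 genes. Its omission also took calls over the whole array, at the 0.05 level after adjustment, from 54 to 258. Leaving out any other single pool gave 0.115 to 0.579 for Pdcd1 and 0.0842 to 0.462 for Ctla4. For Icos it gave 0.115 to 0.552 and for Lag3 0.0720 to 0.569, so none of them then passed 0.05.

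Havcr2 read 6.81, 5.74, 5.50 and 6.84 in NOD.ALRc8 pools, against 4.68, 5.42 and 6.13 in NOD-Rag1-/- pools. The groups overlapped, with 2 congenic pools above all NOD-Rag1-/- pools, and the NOD-Rag1-/- pools themselves were spread (5.41 ± 0.73, SD, n = 3, against 6.22 ± 0.70, SD, n = 4, in NOD.ALRc8). The difference was 0.81 (95% CI -0.27 to 1.89), with an adjusted p of 0.600 by limma and an exact permutation p of 0.229. Leaving out NOD-Rag1-/- replicate 3, the highest pool of that strain, gave 1.17 and met the study's threshold, and leaving out replicate 1, the lowest, gave 0.44.

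**Figure D2:**
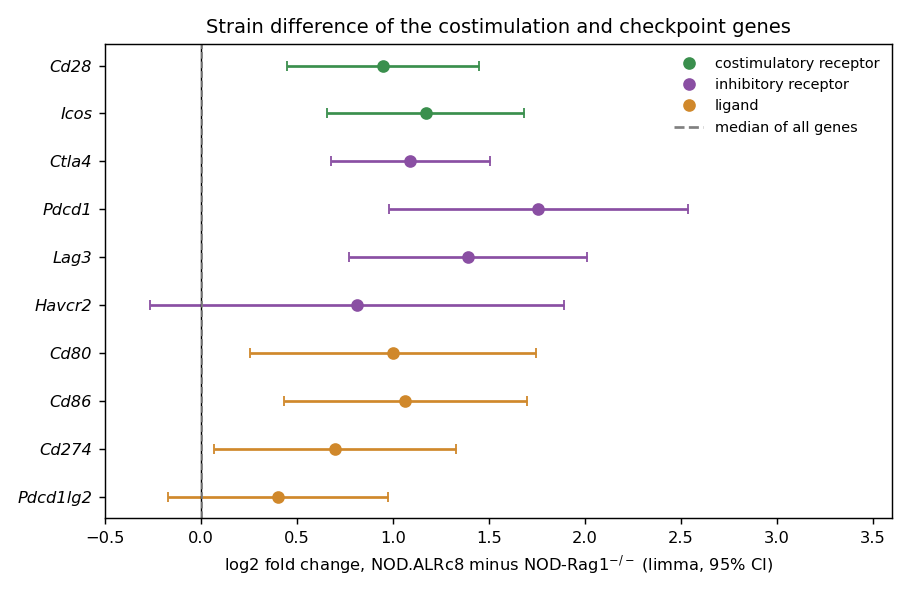
Log2 fold change of each gene, NOD.ALRc8 minus NOD-Rag1-/-, with its 95% confidence interval from limma (4 against 3 pools), coloured by role, and a dashed line at the median of all genes (0.01). Pdcd1 (1.76) is farthest to the right, and the intervals of Havcr2 and Pdcd1lg2 include 0.

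The ligands of CD28 and CTLA-4 were also higher in NOD.ALRc8 islets, with groups that touched or nearly touched. Cd86 read 4.62, 4.47, 3.64 and 4.31 in NOD.ALRc8 pools, against 3.6, 3.11 and 2.88 in NOD-Rag1-/- pools. NOD.ALRc8 replicate 3 was only 0.04 above NOD-Rag1-/- replicate 1, while the other pools were far apart. Cd86 differed by 1.06 (standard error 0.27, 2.09-fold), with an adjusted p of 0.287 by limma and an exact permutation p of 0.0571. Cd80 read 4.85, 4.28, 3.59 and 3.93 in NOD.ALRc8 pools and 3.59, 3.08 and 2.83 in NOD-Rag1-/- pools. The same pools, NOD.ALRc8 replicate 3 and NOD-Rag1-/- replicate 1, had an identical value of Cd80. Cd80 differed by 1.0 (standard error 0.32, 2.0-fold), with an adjusted p of 0.414 by limma and an exact permutation p of 0.0857. Cd80 no longer met the study's threshold without NOD-Rag1-/- replicate 2 (unadjusted p = 0.051) or replicate 3 (unadjusted p = 0.0629). Both ligand genes differed less in the set of arrays with NOD-Rag1-/- replicate 1 (0.54 for Cd86 and 0.35 for Cd80) than in the other set (1.63 and 1.90).

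Of the genes for the PD-1 ligands, Cd274 met the study's threshold and Pdcd1lg2 did not. Cd274 read 7.99, 7.38, 7.30 and 8.06 in NOD.ALRc8 pools, against 6.51, 7.30 and 7.15 in NOD-Rag1-/- pools. Congenic replicates 1 and 4 were clearly above the rest, and congenic replicate 3 was above NOD-Rag1-/- replicate 2 by only 0.0026. Its log2 fold change was 0.70 (95% CI 0.07 to 1.33, 1.62-fold), with an adjusted p of 0.490 by limma and an exact permutation p of 0.114. It lost the study's threshold without NOD.ALRc8 replicate 1 (0.60) or 4 (0.57) and without NOD-Rag1-/- replicate 1 (0.46) or 3 (0.78, unadjusted p = 0.054), and with arrays centred on their medians (0.58, unadjusted p = 0.0796). Pdcd1lg2 read 4.44, 3.67, 3.40 and 3.64 in NOD.ALRc8 pools, against 3.19, 3.49 and 3.49 in NOD-Rag1-/- pools. Congenic replicate 1 stood far above the NOD-Rag1-/- pools, replicates 2 and 4 just above them, and replicate 3 among them. Its log2 fold change was 0.40 (95% CI -0.17 to 0.97), with an adjusted p of 0.622 by limma and an exact permutation p of 0.229, and it was 0.18 without NOD.ALRc8 replicate 1. In the array set with 3 congenic pools Cd274 differed by 1.07 and Pdcd1lg2 by 0.39, and in the other set by 0.77 and 0.95.

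No pair of related genes differed from each other in its strain difference by the exact test. The difference of log2 fold changes was 0.14 for Ctla4 over Cd28, which share ligands, and 0.22 for Icos over Cd28. It was -0.06 for Cd80 over Cd86 and 0.30 for Cd274 over Pdcd1lg2, each pair binding the same receptors. Pdcd1 differed from its ligand gene Cd274 by 1.06. Over these 5 pairs, exact permutation p-values of the difference ran from 0.171 (Pdcd1 over Cd274) to 0.657, and adjusted over the 5 pairs from 0.571 to 0.657. These tests do not show that the partners moved alike.

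All 10 genes had their lowest NOD.ALRc8 value in replicate 3, which was the lowest congenic pool for 16.2% of all probe sets. The highest congenic value was in replicate 1 for Lag3, Cd80, Cd86 and Pdcd1lg2, in replicate 4 for Cd28, Icos, Havcr2 and Cd274, and in replicate 2 for Pdcd1 and Ctla4. The mean of Cd3d, Cd3e and Cd3g, chains of the T cell receptor complex, was 6.71, 6.90, 5.42 and 6.62 in NOD.ALRc8 replicates 1 to 4, against 3.85, 3.38 and 3.79 in NOD-Rag1-/- replicates 1 to 3. So the CD3 mean was lowest in the same congenic pool. Subtracting the CD3 mean from each congenic pool left a range of 0.44 in place of 1.40 for Pdcd1, and of 0.65 in place of 0.98 for Cd86. The range also narrowed for Cd80 (0.86 in place of 1.26) and Lag3 (1.12 in place of 1.19), and it widened for the other 6, the most for Cd274 (1.41 in place of 0.76). The CD3 mean itself ranged over 1.49 among these pools, so genes with small ranges of their own could hardly narrow. For such genes a wider range does not show that they varied apart from CD3. Havcr2 (1.38 in place of 1.33) and Pdcd1lg2 (1.22 in place of 1.04) also widened, with ranges of their own above that of Cd86, which narrowed. Among NOD-Rag1-/- pools, replicate 1 was the highest for Icos, Ctla4, Pdcd1, Lag3, Cd80 and Cd86 and the lowest for Havcr2, Cd274 and Pdcd1lg2. It was the highest of its strain for 42.8% of all probe sets and the lowest for 28.6%.

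**Figure D3:**
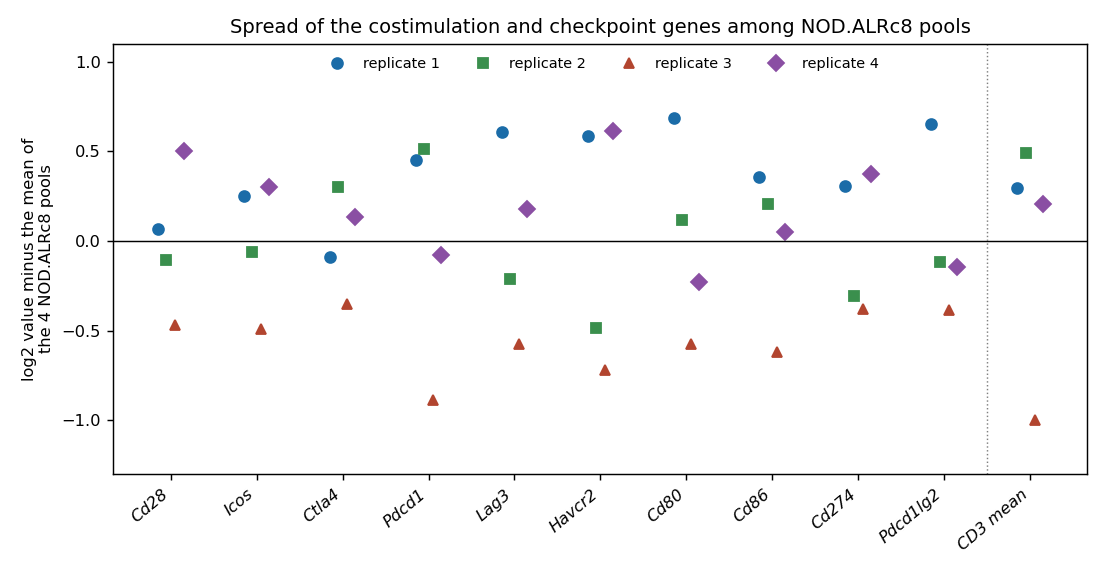
Deviation of each NOD.ALRc8 pool from the mean of the 4 NOD.ALRc8 pools (log2) for each gene and, at the right, for the mean of Cd3d, Cd3e and Cd3g. Replicate 3 (triangles) is the lowest pool for all 10 genes and for the CD3 mean, and the highest pool differs between genes.

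Other genes whose values over the 7 pools came closest to those of a gene with separate groups, by the mean absolute difference after centring, were Hmha1 (0.062), Ctsw (0.080) and Lat (0.118) for Pdcd1. They were Mfge8 (0.080), Fam49a (0.083) and Hvcn1 (0.106) for Ctla4, and Sipa1 (0.082), Pik3cd (0.085) and Ifi47 (0.104) for Cd28. The ranges of the genes' own values over the 7 pools ran from 1.5 for Cd28 to 2.35 for Pdcd1. A range is another measure than a mean difference. The named genes were picked as the nearest of all symbols, so small distances follow from that choice. For Icos the nearest genes were Gimap1 (0.094), AB124611 (0.122) and Ptger4 (0.124), and for Lag3 Plxnd1 (0.057), Nt5e (0.087) and Irf4 (0.097). Cd86 came closest to Zc3h12d (0.090), Nlrc5 (0.093) and Kcnn4 (0.109), and Cd274 to Tpm3 (0.084), Csrp1 (0.10) and Mcm5 (0.124). No gene was nearest to more than 1 of these 7, and these are distances and not tests.

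Further genes of the pathway, 58 of 59 listed, had a median log2 fold change of 0.58. At the study's threshold 28 of them were higher and 0 lower. None passed an adjusted p of 0.05 by limma, and 32 had an unadjusted p under 0.05. These genes and all gene lists below were also chosen with earlier results of these data known. The inhibitory receptors outside the 10 genes were 5 of 9 higher at the study's threshold, with a median of 0.82. Tigit, which competes with the costimulatory receptor CD226 for its ligands, read 4.86, 4.76, 3.38 and 4.82 in NOD.ALRc8 pools, against 2.55, 2.37 and 2.53 in NOD-Rag1-/- pools. Replicate 3 was again the low congenic pool and the groups did not overlap. The difference of Tigit was 1.97 (adjusted p = 0.141 by limma), that of Cd96, which binds the same ligand family, 1.68 (adjusted p = 0.138), that of Cd5, a negative regulator of receptor signalling, 1.77 (adjusted p = 0.0682) and that of the collagen receptor Lair1 0.60 (adjusted p = 0.359). Btla, the remaining receptor of the CD28 family on the list, differed by 1.24 (adjusted p = 0.400).

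Of 12 other costimulatory receptors, 8 were higher at the study's threshold, with a median of 0.79. Cd27, a receptor of the TNF family, differed by 1.71 (adjusted p = 0.212 by limma), and the SLAM family receptors Slamf6 and Slamf1 by 1.88 (adjusted p = 0.161) and 0.70 (adjusted p = 0.260). Cd6, which binds ALCAM, differed by 1.34 (adjusted p = 0.158). The B7 family ligands had a median of 0.40 with 4 of 9 higher as listed, and of 0.20 with 1 of 5 higher without Cd80, Cd86, Cd274 and Pdcd1lg2. The 17 further ligands had a median of 0.39 with 7 higher, and the lists were not tested against each other. Icosl, the ligand of ICOS, was the one B7 gene past the threshold, at 5.64, 6.36, 5.51 and 6.29 in NOD.ALRc8 pools, against 5.04, 4.27 and 4.73 in NOD-Rag1-/- pools. The groups did not overlap, and the difference was 1.27 (adjusted p = 0.205 by limma). Cd276, Vtcn1 and Btn2a2, B7 and butyrophilin family genes, had values of -0.23, 0.20 and 0.29 for the same difference, none past the threshold.

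Among the further ligands, Lgals9, which encodes galectin-9, a proposed ligand of TIM-3, differed by 1.32 (adjusted p = 0.209 by limma), and Cd48, a ligand of CD244, by 1.49 (adjusted p = 0.231). Tnfrsf14, the ligand of BTLA, differed by 0.66 (adjusted p = 0.169), and Cd200, the ligand of CD200R, by 0.43 (adjusted p = 0.319), below the fold the study asks for. Genes that carry the signals of CD28, CTLA-4 and PD-1 inside the cell had a median of 0.26, with 7 of 15 higher at the study's threshold. Lcp2 (the adaptor SLP-76) differed by 1.65 (adjusted p = 0.146 by limma) and Pik3cd (a lymphocyte PI3K subunit) by 0.95 (adjusted p = 0.248).

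Markers of several cell types were also higher in NOD.ALRc8 islets, and their part in the values of the 10 genes was not tested. Of 13 T cell identity genes, 12 were higher at the study's threshold and 0 lower, with a median of 1.58, and their summed level on the log2 scale was 9.91 to 11.38 in NOD.ALRc8 pools and 8.17 to 9.03 in NOD-Rag1-/- pools. Cd4, the coreceptor of helper T cells, differed by 2.88 (adjusted p = 0.0772 by limma), Cd3e by 2.70 (adjusted p = 0.117) and the T cell receptor beta constant region Trbc1 by 3.63 (adjusted p = 0.103). Regulatory T cells carry CTLA-4 and ICOS, and of 5 other genes of that list 3 were higher at this threshold. Foxp3, their defining transcription factor, read 6.22, 4.73, 4.90 and 5.82 in NOD.ALRc8 pools, against 4.90, 3.87 and 3.82 in NOD-Rag1-/- pools, with groups that overlapped (1.22, adjusted p = 0.471 by limma). Il2ra, the interleukin-2 receptor alpha chain, differed by 1.26 (adjusted p = 0.350).

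The ligands are carried by antigen-presenting cells. All 8 B cell genes were higher at the study's threshold, with a median of 1.39, and their summed level was 7.27 to 8.90 in NOD.ALRc8 pools and 6.47 to 6.92 in NOD-Rag1-/- pools. Cd79a and Cd79b, chains of the B cell receptor complex, differed by 1.42 (adjusted p = 0.341 by limma) and 1.37 (adjusted p = 0.355). Of 13 macrophage and dendritic cell genes, 6 were higher and 0 lower, with a median of 0.99 and summed levels of 10.09 to 11.67 in NOD.ALRc8 pools and 10.07 to 10.53 in NOD-Rag1-/- pools. Ccr7, a chemokine receptor of mature dendritic cells and of naive T cells, differed by 2.63 (adjusted p = 0.205), and Flt3, a receptor of dendritic cell development, by 1.31 (adjusted p = 0.143). MHC class II molecules are the ligand of LAG-3. Of the 7 genes on the MHC class II list, which also holds genes such as Cd74 and Ciita, 6 were higher. Their median was 2.32, with summed levels of 11.32 to 12.13 in NOD.ALRc8 pools and 8.44 to 8.75 in NOD-Rag1-/- pools. H2-Ab1 rose by 4.32 (adjusted p = 0.0024 by limma), Cd74, the invariant chain, by 3.38 (adjusted p = 0.0044) and H2-Aa by 2.39 (adjusted p = 0.0207).

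Interferon gamma induces Cd274. A list of 12 genes, made up of the cytokine, its receptor chains and kinases and genes it induces, had 8 higher and 0 lower at the study's threshold, with a median of 0.94. The 8 include the receptor genes Ifngr1 (1.02) and Ifngr2 (0.51), while Ifng itself had a difference of 0.25 (adjusted p = 0.579 by limma) and overlapped between the groups. Their summed levels were 11.24 to 12.10 in NOD.ALRc8 pools and 10.63 to 10.73 in NOD-Rag1-/- pools. Cxcl9, a chemokine that attracts activated T cells, rose by 5.22 (adjusted p = 0.0090 by limma), and the GTPase gene Gbp2 by 3.33 (adjusted p = 0.0461). Of 10 endocrine genes, 0 met the study's threshold, with a median of 0.17 and summed levels of 14.56 to 14.95 in NOD.ALRc8 pools and 14.63 to 14.78 in NOD-Rag1-/- pools, and Ins1 had a difference of 0.38 (adjusted p = 0.503). Acinar genes, markers of exocrine tissue, were higher in 9 of 10 cases, with summed levels of 12.90 to 14.91 in NOD.ALRc8 pools and 8.67 to 12.39 in NOD-Rag1-/- pools, and endothelial genes in 5 of 6, with 9.79 to 10.43 in NOD.ALRc8 pools and 8.14 to 9.31 in NOD-Rag1-/- pools. NOD.ALRc8 replicate 3 was the lowest congenic pool for 11 of 13 T cell genes, 9 of 13 macrophage and dendritic cell genes and 0 of 10 acinar genes.

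**Figure D4:**
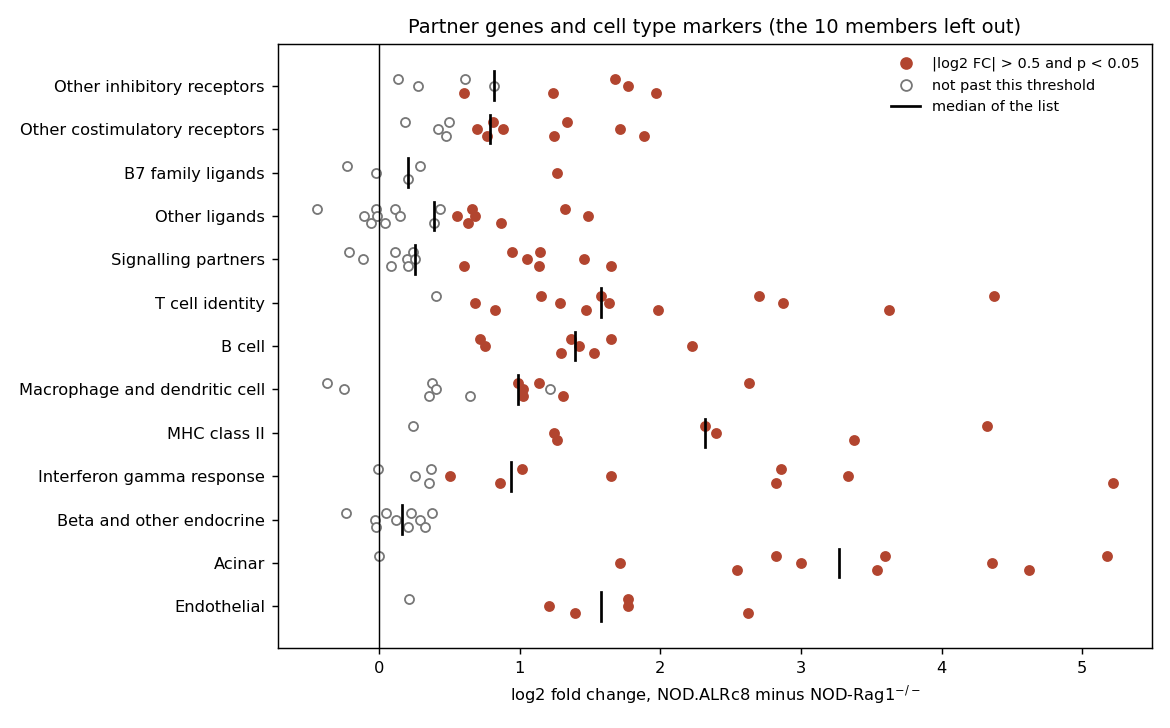
Log2 fold change, NOD.ALRc8 minus NOD-Rag1-/-, of every measured gene of each list without the 10 genes themselves, 1 point a gene, with the median of each list as a vertical bar. Filled points met the study's threshold by limma (log2 fold change past 0.5 in size, unadjusted p below 0.05), and all of them lie to the right of 0. The receptor lists have medians of 0.82 and 0.79, the other B7 family ligands 0.20 and the endocrine genes 0.17.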

How the data were processed

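Islet RNA of 4 NOD.ALRc8 pools and 3 NOD-Rag1-/- pools was hybridised to Affymetrix Mouse Gene arrays, 1 array per pool. The deposited values are log2 expression values that the authors made with RMA (background correction, quantile normalization and a summary over the probes of a set); its version is not given in the sources used here. A deposited comparison table gave symbols and positions by probe set; its log2 fold changes and p-values, which are the authors' own, were not used. Those fold changes do not follow the deposited values by probe set, and the reason is unknown, so the link of each probe set to its gene carries a doubt. It was checked only through genes of known behaviour (Xist and Ddx3y, opposed in 1 pool, and Cd3g, low in all NOD-Rag1-/- pools) and through the overlap of each of the 10 positions with its RefSeq gene, which tests symbol against position and not the link. The 10 genes and all gene lists were chosen with earlier results of these data known. The strain difference was fitted by lmFit and eBayes without a block (limma 3.58.1, R 4.3.3) over 34351 annotated probe sets, leaving out 121 without annotation and filtering none on signal. The limma script was tested on simulated data. Each gene was taken at its brightest probe set. Named genes are the 10, the 3 nearest by pattern for each gene with separate groups, and up to 4 per list with the smallest p; Ifng, Ifngr1, Ifngr2, and Rag1, Xist and Ddx3y as checks, were named outside that rule, after values were seen. The labels tie each pool to 2 mice. Same-numbered pools did not deviate together, so no pairing was used. Arrays give no counts, and the number of pools limits the precision. Alternatives covered scaling, brighter probe sets, the test form, array weights, array sets, thresholds and left-out pools. Figures were drawn with matplotlib 3.10.9 in Python 3.11.15. Protein sequences were not analysed here, and some genes that the rule names are not reported here.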

Additional observations from a re-analysis of the deposited data

How the results depend on the processing

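The direction never turned in 175 alternatives for single genes of the 10, but not all of these could turn it. Other forms of the test and the restriction to brighter probe sets keep the estimate of the main fit. The replicate block gives the same estimate as leaving out NOD.ALRc8 replicate 4. Of the 175 alternatives, 160 stayed on their side of the study's threshold, 12 lost it and 3 gained it. The 12 were Cd274 in 10 settings, down to 0.36 without the first pool of both strains, and Cd80 without NOD-Rag1-/- replicate 2 or 3. The 3 were Havcr2 with the array sets as a block (1.20) and without NOD-Rag1-/- replicate 3 (1.17), and Pdcd1lg2 with that block (0.65). Without the first pool of both strains, Havcr2 fell to 0.25 and Pdcd1lg2 to 0.08. Of the 10 genes, 0 passed an adjusted p of 0.05, and also 0 at 0.1; 2 passed with array weights (Ctla4 at 0.0311 and Lag3 at 0.0475) and 0 to 4 when single pools were left out. At the study's threshold 8 passed, 7 to 10 under the alternatives, except that only 5 of the genes are among the brighter probe sets, where 4 passed. Of the pathway genes, 28 passed and 21 to 30 under the alternatives.

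The number of probe sets with an adjusted p under 0.05 was 54, against 31 with the array sets as a block, 233 with array weights, 97 among brighter probe sets, 1 by an unpaired test with equal variances, 0 by one with unequal variances, 1 without the first pool of both strains, 109 at an adjusted p of 0.1 and 10 to 258 when single pools were left out. At the study's threshold, 1920 passed, against 3560 with array weights, 1248 and 1204 by the tests with equal and unequal variances, 4438 without the first pool of both strains and 1264 to 3299 when single pools were left out. Quantile normalization gave 1921, of which 1157 were higher. A setting chosen after seeing the data, without NOD.ALRc8 replicate 3 and NOD-Rag1-/- replicate 1, gave 7 of the 10 genes at the study's threshold.

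Same-numbered pools had correlations of deviations of -0.38, -0.14 and -0.11, so the numbers do not pair them; with a replicate block, 0 probe sets passed an adjusted p of 0.05, 1148 met the study's threshold, and 7 of the 10 genes and 24 pathway genes did. Each gene of the 10 has 1 probe set, so the alternative of another probe set gave no value. Ctla4, Cd28, Pdcd1lg2, Cd80 and Cd86 are not among the brighter probe sets.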
